A study of Mus musculus with 6 samples.

Results

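The genes described here are 3 R-spondins (Rspo1, Rspo2, Rspo3), 6 secreted inhibitors of Wnt signalling (Sfrp1, Sfrp2, Dkk1, Dkk2, Dkk3, Wif1) and the R-spondin receptor gene Lgr4, compared between the mesenchyme and the urothelium of the embryonic mouse bladder. They were taken as all probe sets of the array whose single gene symbol is one of these names, which gave 10 genes with 19 probe sets, of 18193 genes with 34945 such probe sets in all. The bladders came from wild-type FVB/N embryos at embryonic day 13 (Theiler stage 21) whose sex was not recorded, and the labels give no allele or transgene. After 20 minutes in 20 µM EDTA, which loosens epithelium, the layers were parted with a needle, and RNA of each went through 2 rounds of amplification onto Affymetrix MOE430 arrays. There were 3 mesenchyme arrays (numbered 1, 2 and 4 by the labels) and 3 urothelium arrays (5, 7 and 8), none from a pool per the labels. Whether the arrays of a group stand for separate embryos is not said in the labels, so every p-value here rests on the spread between arrays, which may be technical.

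R-spondins are secreted proteins that strengthen a Wnt signal where a Wnt ligand is already present. They bind receptors of the Lgr family together with the membrane E3 ligases Znrf3 and Rnf43, which otherwise remove Frizzled receptors from the cell surface. The inhibitors act outside the cell as well: the Sfrp proteins and Wif1 bind Wnt ligands, while Dkk1 and Dkk2 bind the co-receptors Lrp5 and Lrp6. In the adult mouse bladder, hedgehog ligand from the urothelium is known to raise Wnt ligand expression in the stroma, so that Wnt signals pass between the layers.

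Of the 10 genes, 7 were higher in mesenchyme and 0 were higher in urothelium at a limma adjusted p under 0.05 (Benjamini-Hochberg over 18193 genes). At that threshold 8.91% of all genes tested were higher in mesenchyme and 5.80% were higher in urothelium, together 14.7%. At an unadjusted p under 0.05, 7 were higher in mesenchyme, beside 15.2% of all genes, and Lgr4 was higher in urothelium, beside 9.78%. The 7 genes were all 3 R-spondins, both Sfrp genes, Dkk2 and Dkk3; Dkk1, Wif1 and Lgr4 did not pass. For the same 7 genes the arrays of the layers did not overlap, against 18.1% of all genes with every mesenchyme array above every urothelium array and 12.0% the other way round. The median log2 difference of the 10 genes was 1.91, beside 0.11 for all genes tested. Differences are mesenchyme minus urothelium and were taken on log2(signal + 45), so those of dim genes are understated. Signals are array intensities, which can be compared between arrays but not between genes.

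**Figure D1:**
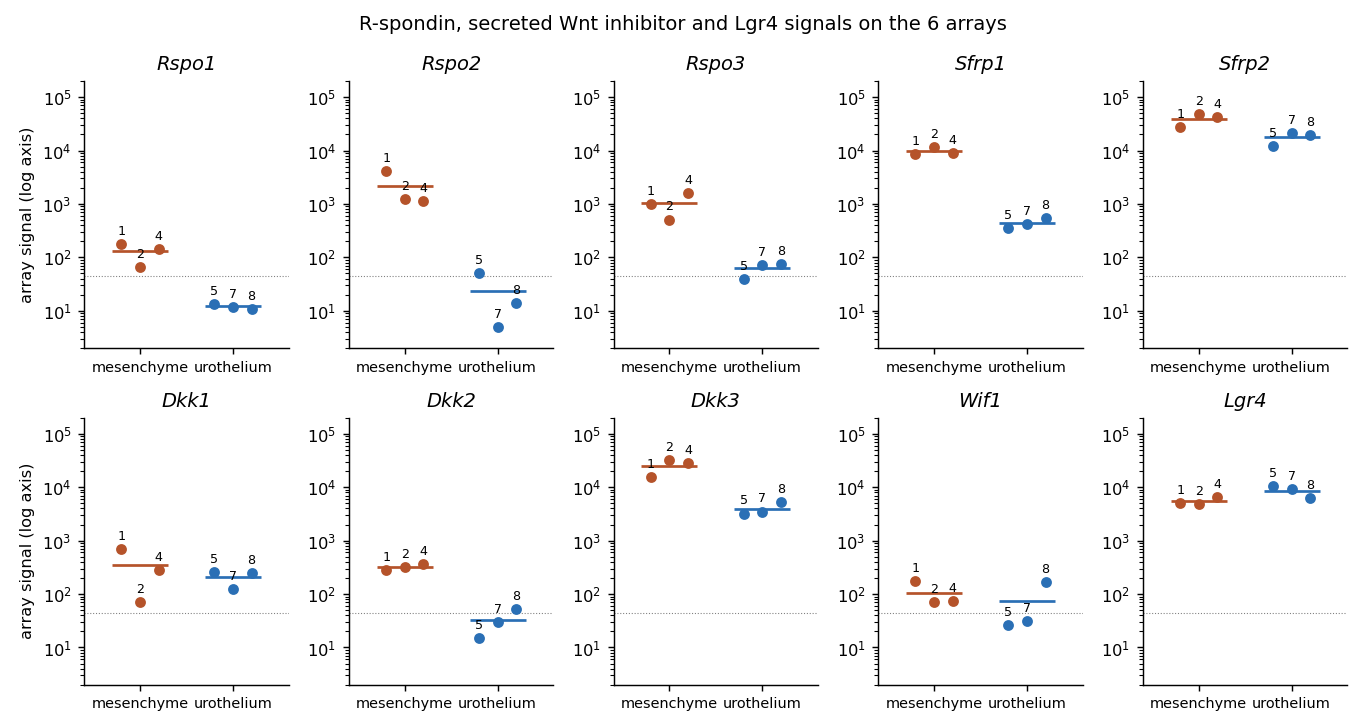
Array signal (log axis) of each of the 10 genes on the 3 mesenchyme arrays (left) and the 3 urothelium arrays (right); points are arrays marked with their number, horizontal bars are group means and the dotted line is a signal of 45. For 7 genes every mesenchyme array lies above every urothelium array, while the groups overlap for Dkk1, Wif1 and Lgr4; heights are not comparable between panels.

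The labelled layers were checked against their markers. Of 12 epithelial markers 12 were higher in urothelium, with summed signals of 9825 to 13086 on mesenchyme arrays and 425111 to 487783 on urothelium arrays. Of 12 mesenchyme markers 12 were higher in mesenchyme, with summed signals of 299670 to 334494 on mesenchyme arrays and 10545 to 14528 on urothelium arrays. The mesenchyme arrays also held more signal of other cell types: 5 of 6 smooth muscle genes, 7 of 7 endothelial genes, 4 of 6 macrophage genes and 3 of 5 red cell genes were higher there. Of 5 mesothelial genes 2 were higher in each layer, and of 4 neural crest genes 0 passed limma's test, though 3 were higher in mesenchyme at an unadjusted p under 0.05. The mesothelial genes higher in urothelium were Msln and Krt19, and Krt19 was also counted among the epithelial markers. On mesenchyme 1 and urothelium 5 the 3′ to 5′ signal ratio of beta-actin was 8.40 and 8.60, while the remaining 4 arrays had 2.29 to 4.89. The ratio of Gapdh did not set mesenchyme 1 apart (11.5, with 14.2 and 15.7 on mesenchyme 2 and 4), and was highest on urothelium 5 (26.3, with 15.0 and 9.77 on urothelium 7 and 8). Without mesenchyme 1 and urothelium 5, 7 of the 10 genes were again higher in mesenchyme, beside 9.53% of all genes. In whole tissue, fewer cells of a type and less RNA per cell cannot be told apart.

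Among the R-spondin ligands, Rspo2 had the largest log2 difference. Signals of 4111, 1236 and 1153 were read on mesenchyme 1, 2 and 4, against 50.4, 5.06 and 14.2 on urothelium 5, 7 and 8. Mesenchyme 1 stood well above the other mesenchyme arrays, and even the lowest mesenchyme array was far above the highest urothelium array. The log2 difference was 4.82 ± 0.55 (SE), with a limma adjusted p of 0.000130. Without mesenchyme 1 it was 4.24, so the high array did not carry the call. The mean of both Rspo2 probe sets gave 2.01, since the dimmer probe set ran the other way.

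Rspo3 had signals of 1003, 511 and 1609 on mesenchyme 1, 2 and 4, and of 39.9, 72.5 and 76.1 on urothelium 5, 7 and 8. The mesenchyme arrays spread over a 3.15-fold range, with mesenchyme 2 the lowest, and did not come near the urothelium arrays. The log2 difference was 3.21 ± 0.48 (SE; limma adjusted p = 0.000893). It was 1.69 in the mean of both Rspo3 probe sets, and still past the test.

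Rspo1 was dim in both layers. It had 180, 67.0 and 145 on the mesenchyme arrays, while the urothelium arrays gave 13.5, 11.9 and 10.8, all under the pseudocount of 45. The groups did not overlap, and the urothelium arrays lay close together. Mean signals of 131 ± 57.9 in mesenchyme and 12.1 ± 1.34 in urothelium (SD, n = 3 each) are 10.8-fold apart, but on the log2(signal + 45) scale the difference was 1.56 ± 0.35 (SE; limma adjusted p = 0.0107). It was 3.22 with a pseudocount of 1 and 0.68 with a pseudocount of 179, past the test with each. Without urothelium 7 the call was lost (adjusted p = 0.0518), at a log2 difference of 1.56.

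Lgr4, which encodes a receptor for R-spondins, did not pass in either direction. Its signals read 5039, 4788 and 6474 on mesenchyme 1, 2 and 4, and 10447, 9173 and 6233 on urothelium 5, 7 and 8. Urothelium 5 and 7 were above every mesenchyme array, but urothelium 8 fell below mesenchyme 4. The log2 difference of −0.64 ± 0.28 (SE) had a 95% confidence interval of −1.26 to −0.018 and did not pass (limma adjusted p = 0.185). With array weights, which count arrays that depart from their group for less, it was −0.66 and past the test (limma adjusted p = 0.0384). In that setting 11.3% of all genes were higher in urothelium, against 5.80% without weights. In the mean of both Lgr4 probe sets the log2 difference was −0.25.

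Of the 5 further genes of this axis, Rspo4, Lgr5, Lgr6, Znrf3 and Rnf43, 0 were higher in mesenchyme and 1 was higher in urothelium. At an unadjusted limma p under 0.05 the counts were 0 in mesenchyme and 2 in urothelium. The median log2 difference of −0.46 was that of Lgr5, whose arrays overlapped (mean signals 114 in mesenchyme and 164 in urothelium). Lgr6 (216 and 94.3) overlapped as well, and Rspo4 (24.4 and 26.8) had means under 45 in both layers. The gene past the test was Znrf3, at 1394, 901 and 1649 on the mesenchyme arrays and 3464, 3028 and 3935 on the urothelium arrays, without overlap. Its log2 difference was −1.41 ± 0.31 (SE; limma adjusted p = 0.0110), and the call was lost without mesenchyme 2 (adjusted p = 0.0555), which left 0 of the 5 genes past the test. Rnf43, the paralogous ligase gene, had 357, 61.3 and 29.5 on the mesenchyme arrays and 437, 421 and 799 on the urothelium arrays. Mesenchyme 1 lay close to the urothelium arrays and the other mesenchyme arrays far below them. The Rnf43 difference of −1.96 ± 0.62 did not pass (limma adjusted p = 0.0587). Nor did it pass without mesenchyme 2 (−1.73, limma adjusted p = 0.173), without mesenchyme 4 (−1.47, 0.204), or with a pseudocount of 1 or 179. Without mesenchyme 1 it was −2.69 and passed (limma adjusted p = 0.00344). It also passed without both mesenchyme 1 and urothelium 5 (−2.82), with array weights (−2.39), after quantile normalization (−2.15) and after median centring (−2.15). In each of these settings 2 of the 5 genes were higher in urothelium, and with array weights 1 was higher in mesenchyme. Of all genes, 5.84% to 6.78% were higher in urothelium in these settings. With array weights it was 11.3%, and 16.5% in mesenchyme.

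Of the secreted Frizzled-related proteins, which bind Wnt ligands through a domain like that of the receptors, Sfrp1 had the smallest adjusted p of the 10 genes. It gave 8469, 11637 and 9046 on mesenchyme 1, 2 and 4, against 353, 427 and 540 on urothelium 5, 7 and 8. The arrays of each layer lay close together, within 1.37-fold in mesenchyme and 1.53-fold in urothelium, and the layers were far apart. Mean signals were 22.1-fold apart, with a log2 difference of 4.34 ± 0.30 (SE; limma adjusted p = 5.10e-06).

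Sfrp2 was bright in both layers. It gave 27583, 47309 and 42237 on the mesenchyme arrays and 12112, 21174 and 19705 on the urothelium arrays. The lowest mesenchyme array was still above the highest urothelium array, and the lowest arrays of the layers were mesenchyme 1 and urothelium 5. Mean signals of 39043 ± 10244 in mesenchyme and 17663 ± 4864 in urothelium (SD, n = 3 each) were 2.21-fold apart, with a log2 difference of 1.15 ± 0.31 (SE; limma adjusted p = 0.0304). The adjusted p lay near the threshold, and the call was lost without mesenchyme 2 (adjusted p = 0.132), mesenchyme 4 (0.108), urothelium 5 (0.102), urothelium 7 (0.0622) or urothelium 8 (0.0512), with arrays centred on their medians (0.151) and without the intensity trend (0.0635). The log2 difference itself was 0.90 to 1.30 in these settings, and larger without urothelium 7 (1.30) or urothelium 8 (1.25) than with all arrays.

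Of the Dickkopf genes 2 of 3 were higher in mesenchyme. Dkk1 and Dkk2 encode ligands of the Wnt co-receptors, whereas Dkk3 is a divergent member of the family that is not known to bind those co-receptors in the same way. Dkk3 had 15319, 31687 and 28597 on mesenchyme 1, 2 and 4, and 3222, 3510 and 5230 on urothelium 5, 7 and 8. Mesenchyme 1 was the lowest mesenchyme array and still well above urothelium. The log2 difference was 2.61 ± 0.33 (SE; limma adjusted p = 0.000284).

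Dkk2 had 276, 314 and 369 on the mesenchyme arrays and 15.2, 29.7 and 51.8 on the urothelium arrays. The mesenchyme arrays were within 1.33-fold of each other, and the groups did not overlap. The log2 difference was 2.26 ± 0.38 (SE; limma adjusted p = 0.00187). It was 3.42 with a pseudocount of 1 and 1.24 with a pseudocount of 179, past the test with each.

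Dkk1 had 702, 70.6 and 278 on mesenchyme 1, 2 and 4, against 259, 124 and 252 on urothelium 5, 7 and 8. The mesenchyme arrays spread over a 9.94-fold range that enclosed all urothelium arrays. The log2 difference of 0.29 ± 0.63 (SE) had a 95% confidence interval of −1.11 to 1.69 (limma adjusted p = 0.846), which leaves room for a difference of either sign. Without mesenchyme 1 it was −0.36.

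Promoter windows, from 250 bases before to 50 after the annotated start in RefSeq for build GRCm38.p6, were on hand for 6 of the 10 genes. Those of Dkk1 and Dkk2 are shown because the proteins bind the same co-receptors, while Dkk2 passed the test between layers and Dkk1 did not. The Dkk1 window is chr19:30549447-30549746 on the minus strand and the Dkk2 window chr3:132085042-132085341 on the plus strand, each written 5′ to 3′ with the TATA box letters TATAAA in capitals.
Dkk1: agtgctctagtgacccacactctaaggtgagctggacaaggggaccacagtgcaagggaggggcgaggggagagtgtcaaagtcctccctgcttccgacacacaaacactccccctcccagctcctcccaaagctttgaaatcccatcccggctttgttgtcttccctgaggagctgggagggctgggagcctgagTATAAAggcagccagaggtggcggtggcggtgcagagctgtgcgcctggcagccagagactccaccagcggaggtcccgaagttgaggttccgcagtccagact
Dkk2: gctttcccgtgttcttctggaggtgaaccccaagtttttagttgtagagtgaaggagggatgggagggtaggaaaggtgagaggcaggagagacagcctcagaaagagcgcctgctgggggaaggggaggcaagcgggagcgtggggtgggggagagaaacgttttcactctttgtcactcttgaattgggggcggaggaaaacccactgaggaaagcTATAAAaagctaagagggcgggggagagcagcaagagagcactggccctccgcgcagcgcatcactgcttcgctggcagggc
Both windows held TATAAA, on the strand of the gene, at bases 197 to 202 for Dkk1 and at bases 219 to 224 for Dkk2, counted from the 5′ end. On either strand these letters were found in 13.6% of 32851 promoter windows. Of the other 4 genes in the table, Wif1 held TATAAA on the opposite strand at bases 19 to 24, and Rspo1, Sfrp2 and Lgr4 did not hold it. The Tcf/Lef letters ATCAAAG, found in 3.73% of all windows on either strand, and the Gli core letters ACCACCC, found in 4.61%, were in 0 of the 6 windows. A match of letters is a description of the window, and no match says nothing of binding elsewhere.

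Wif1, which binds Wnt ligands through a domain of its own, was dim. It had 172, 71.9 and 74.9 on mesenchyme 1, 2 and 4, and 26.1, 31.0 and 167 on urothelium 5, 7 and 8. Urothelium 8 lay close to the highest mesenchyme array, so the groups overlapped. The log2 difference of 0.47 ± 0.48 (SE) had a 95% confidence interval of −0.60 to 1.54 (limma adjusted p = 0.629).

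With each probe set tested by itself over all 45037, 10 of the 19 probe sets were higher in mesenchyme and 0 in urothelium by limma, or 11 and 1 at an unadjusted p under 0.05, beside 10.4% and 7.34% of all probe sets. At an adjusted p under 0.05, 4.46% of all probe sets were higher in mesenchyme and 2.88% in urothelium. Arrays did not overlap for 11 with mesenchyme above, beside 13.4% of all probe sets, and for 1 with urothelium above, beside 9.68%. Sfrp1 had 5 probe sets, of which 4 passed with log2 differences of 2.41 to 4.34. The remaining Sfrp1 probe set was dim, at 12.4, 327 and 169 on the mesenchyme arrays and 27.9, 4.42 and 41.5 on the urothelium arrays, and did not pass. Both Dkk3 probe sets passed, at 2.61 and 2.72. Sfrp2 has a single probe set and did not pass in this larger family of tests (limma adjusted p = 0.0568).

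The dimmer probe sets of Rspo2 and Rspo3 did not pass. That of Rspo2 gave 71.8, 26.6 and 26.0 on the mesenchyme arrays and 144, 93.4 and 75.1 on the urothelium arrays. All urothelium arrays were above all mesenchyme arrays there, opposite to the brighter probe set, but the log2 difference of −0.80 ± 0.40 did not pass (limma adjusted p = 0.333). That of Rspo3 gave 74.8, 94.7 and 37.2 on the mesenchyme arrays and 26.1, 59.9 and 83.3 on the urothelium arrays, which overlapped. Which transcripts these probe sets detect was not looked up here.

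**Figure D2:**
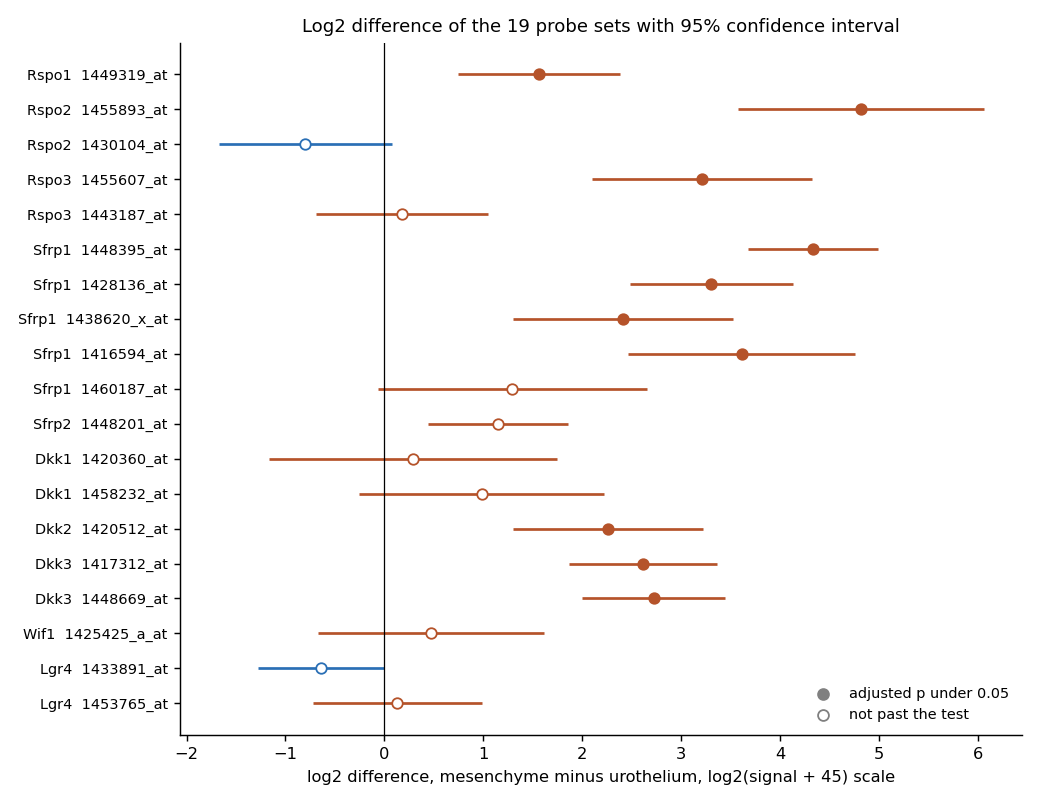
Log2 difference, mesenchyme minus urothelium, of each of the 19 probe sets with its 95% confidence interval; filled points had a limma adjusted p under 0.05 over 45037 probe sets. The 10 filled points all lie to the right of 0, and the open points include the dimmer probe sets of Rspo2, Rspo3 and Lgr4.

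The mean urothelium signal of the 7 genes ran from 1.07% to 45.2% of their mean mesenchyme signal. For 12 mesenchyme marker genes, mean signal in urothelium was 1.12% to 8.33% of that in mesenchyme, with a median of 2.99%. Sfrp1 at 4.53% and Rspo3 at 6.03% lay within that range, and Dkk3 at 15.8% and Sfrp2 at 45.2% lay above it. The place of Sfrp1 depended on the probe set. Its other probe sets past the test gave 8.93% and 17.3%, above the range, and 2.10% at a urothelium mean of 16.8. The mean urothelium signal of Rspo3 was only 62.8, with 39.9 on urothelium 5. It was not shown to be above background, so the place of Rspo3 is uncertain. The mean urothelium signals of Rspo1, Rspo2 and Dkk2 were 12.1, 23.2 and 32.2, all under the pseudocount of 45 and not shown to be above background, so their percentages (9.23%, 1.07% and 10.1%) cannot be ranked against the markers, none of which had a urothelium mean under 45. The part of mesenchyme RNA in the urothelium arrays was not tested.

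**Figure D3:**
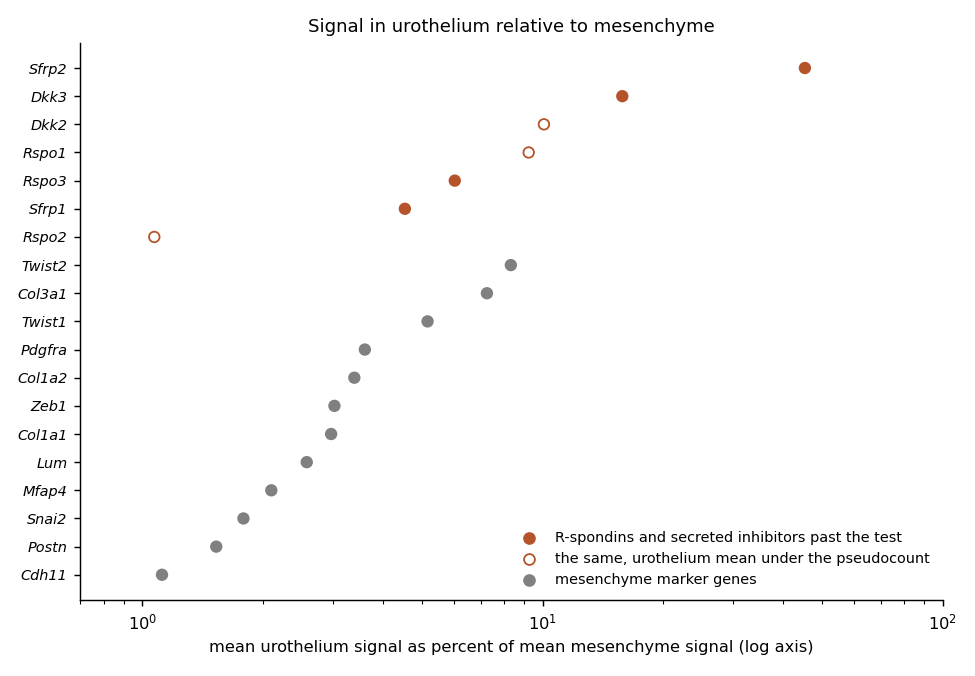
Mean urothelium signal as percent of mean mesenchyme signal (log axis) for the 7 genes past the test (top) and 12 mesenchyme marker genes (bottom). Open points have a mean urothelium signal under 45 and no rank against the markers; of the filled points, Sfrp2 and Dkk3 lie to the right of every marker gene.

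The genes most like each of these over the 6 arrays were found by the root mean square difference of gene-centred log2 values, among genes above the median level. For Sfrp1 they were Pkdcc (0.15), Pitx1 (0.18) and Tgfb3 (0.19). For Rspo2 they were Scd1 (0.32), Clmp (0.37) and Sned1 (0.38), a looser match. For Rspo3 they were Hsd11b2 (0.30), Ddc (0.35) and Wt1 (0.36). Dkk2 was nearest to Rcsd1 (0.12), and Dkk3 to Cebpd (0.14). Rspo1 was nearest to Mageh1 (0.12), Sfrp2 to Orai3 (0.11) and Lgr4 to Rfx7 (0.065). The arrays share the step between layers, which enters every distance.

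Among 63 other Wnt pathway genes measured, of 65 listed, 17 were higher in mesenchyme and 10 in urothelium, with a median log2 difference of 0.37. The count in urothelium was 4 without mesenchyme 2, 6 without mesenchyme 4, 5 without urothelium 7, 6 without urothelium 8 and 16 with array weights. The share of all genes moved as well: 4.16%, 4.41%, 3.58% and 4.80% were higher in urothelium when these arrays were left out, and 11.3% with array weights, against 5.80% with all arrays. The inhibitors outside the 10 genes, with the Dickkopf partner Kremen1 among them, gave 5 higher in mesenchyme and 1 in urothelium of 14. Sostdc1, a secreted antagonist of BMP and Wnt signals, had 2575, 2420 and 4218 on the mesenchyme arrays and 59.1, 65.2 and 98.7 on the urothelium arrays. The groups were far apart (log2 difference 4.68 ± 0.40). Frzb, a further Frizzled-related protein gene, differed by 3.10 ± 0.49, and Sost, whose protein binds the co-receptors, by 2.07 ± 0.43. The limma adjusted p of Sostdc1, Frzb and Sost was 1.98e-05, 0.00118 and 0.00748. With probe sets averaged, their differences were 3.11, 2.09 and 1.23, each still past the test. Kremen1, chosen after its value was seen, had 343, 377 and 566 on the mesenchyme arrays and 859, 1349 and 1426 on the urothelium arrays (log2 difference −1.40, limma adjusted p = 0.0314). The groups did not overlap, but the call was lost without mesenchyme 1 or 2 or urothelium 7 or 8 (−1.27 to −1.33) and in the mean of probe sets (−0.50).

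The ligands and receptors were split between the layers. Of 19 Wnt ligand genes 4 were higher in mesenchyme and 3 in urothelium (median 0.30), led by Wnt2 (5.28 ± 0.30) and Wnt5a (3.64 ± 0.38) in mesenchyme and Wnt4 (−3.63 ± 0.49) in urothelium. With probe sets averaged, Wnt5a was at 2.22 and Wnt4 at −3.16, each still past the test. Without both mesenchyme 1 and urothelium 5, 5 ligand genes were higher in urothelium. Of 16 receptor genes 4 were higher in mesenchyme and 5 in urothelium (median 0.47). The 5 became 2 without mesenchyme 2, mesenchyme 4, urothelium 5 or urothelium 7, 3 without urothelium 8, 2 without the intensity trend, and 3 with a pseudocount of 179, with a 2-fold threshold or in the mean of probe sets. Ror1, a receptor tyrosine kinase of Wnt5a, differed by 3.51 ± 0.37, Fzd10 by 2.22 ± 0.46 and Fzd6 by −2.54 ± 0.28. Ror2, chosen after its value was seen, went the other way from Ror1 (−1.82 ± 0.25, limma adjusted p = 0.000538). It had 2403, 2118 and 2310 on the mesenchyme arrays and 9326, 7063 and 8277 on the urothelium arrays. With probe sets averaged, Ror1 was at 1.33, Fzd10 at 1.23 and Fzd6 at −1.65, each still past the test. Fzd10 was dim, at 536, 131 and 219 on the mesenchyme arrays. Its urothelium arrays gave 19.1, 27.9 and 11.5, all under 45. The Fzd10 difference was 1.75 without mesenchyme 1 and 1.17 with a pseudocount of 179, past the test with each. Of the genes for Wnt secretion, Porcn, which encodes the acyltransferase that lipidates Wnt ligands, differed by 2.28 ± 0.44, while the carrier gene Wls differed by −0.54 ± 0.40 and did not pass. With array weights Wls was at −0.91 and past the test, a setting in which 11.3% of all genes were higher in urothelium.

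Of 7 beta-catenin target genes measured, 3 were higher in mesenchyme and 0 in urothelium by limma (4 and 0 at an unadjusted p under 0.05, median 1.24), and 1 without mesenchyme 2. Lef1, a target that is also a transcription factor of the pathway, had 14889, 3125 and 3515 on mesenchyme 1, 2 and 4, and 923, 348 and 561 on urothelium 5, 7 and 8. The groups did not overlap, and mesenchyme 1 was far above the rest (log2 difference 3.17 ± 0.57, limma adjusted p = 0.00284). The Lef1 difference was 2.45 without mesenchyme 1 and 1.52 with its probe sets averaged, past the test with each. Nkd1, a feedback inhibitor gene, differed by 2.32 ± 0.52 and lost its call without mesenchyme 2 (1.92) or mesenchyme 4 (2.09) and with its probe sets averaged (1.01). Tnfrsf19 differed by 1.24 ± 0.35, and its call was lost when any of mesenchyme 1, 2 or 4 or urothelium 5 or 7 was left out (0.95 to 1.28), after median centring (1.05), without the intensity trend, without both mesenchyme 1 and urothelium 5 (0.93) and with its probe sets averaged (0.70). Axin2, a widely used target gene that was chosen after its value was seen, had 1184, 959 and 1231 on the mesenchyme arrays and 914, 1080 and 1206 on the urothelium arrays. These overlapped almost fully (log2 difference 0.07 ± 0.32, limma adjusted p = 0.928), and the sign turned after quantile normalization or median centring (−0.11 with each).

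**Figure D4:**
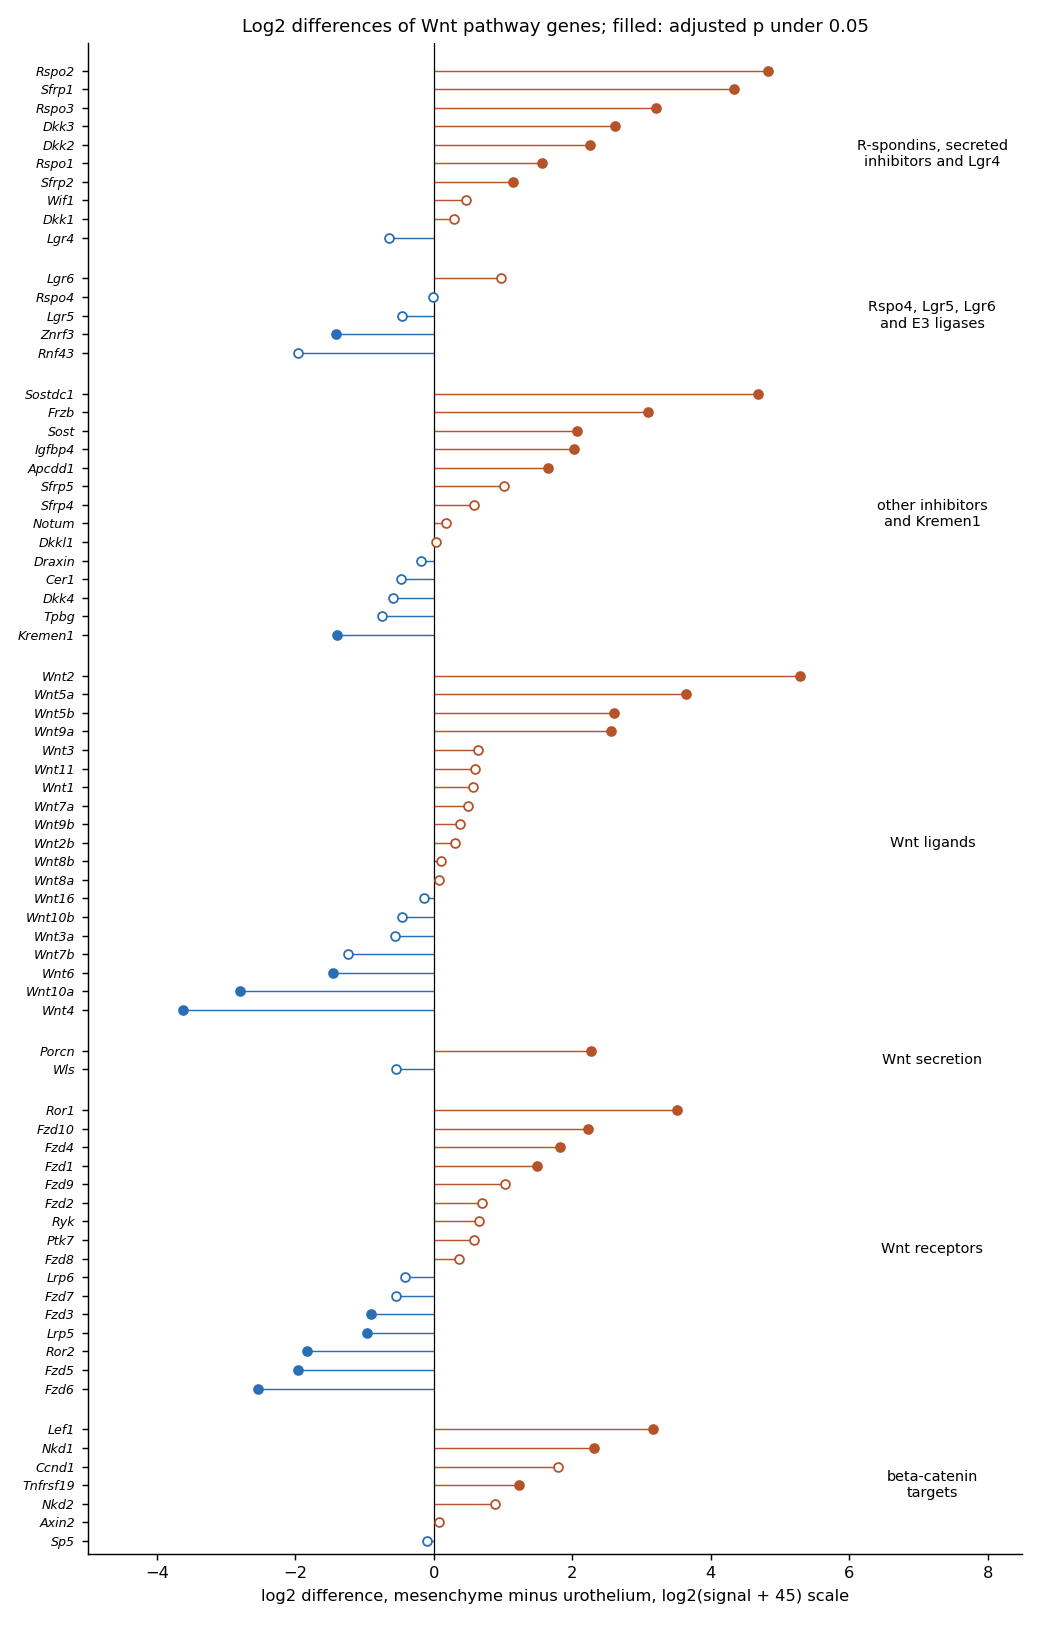
Log2 difference, mesenchyme minus urothelium, of the 10 genes described here (top) and of 63 other Wnt pathway genes by role; filled points had a limma adjusted p under 0.05. The filled points of the top group all lie to the right of 0, while ligands and receptors have filled points on both sides.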

How the data were processed

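The table deposited by the authors holds linear array intensity, 1 signal for each of 45101 probe sets on each of 6 arrays. GCOS, an Affymetrix program, is named in the submitters' processing notes, and the algorithm is not given in the sources used here. Since the 2% trimmed mean was 1500 on every array, no further scaling was done; array medians lay between 132 and 240. Detection calls were not used, so no gene is called absent. The number of arrays limits the precision.

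After 64 control probe sets were left out, 34945 with a single symbol in the platform's annotation named genes, of which 34741 matched RefSeq by Entrez identifier with 0 symbols changed. A gene was read from its probe set with the highest mean log2 value. Signals were taken as log2(signal + 45), where 45 is their 25th percentile. Layer was the factor of a linear model over all 6 arrays (limma 3.58.1, R 4.3.3, eBayes after lmFit, intensity trend on), with Benjamini-Hochberg adjustment over 18193 genes or 45037 probe sets. The fit was tested on simulated data.

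The 10 genes, the Wnt pathway and marker lists and the rules were chosen with earlier results of these data known. Named were all 10 genes, up to 3 genes past the test with the largest difference in each pathway list (where fewer than 2 passed, the 2 brightest), and genes among the 3 nearest to each of the 10. There were 17 alternatives, among them leaving out each array in turn. The labels give no batch or date. Promoter sequences are from RefSeq.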

Additional observations from a re-analysis of the deposited data

How the results depend on the processing

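No paired analysis was possible because the layers share no replicate numbers. Of 17 alternatives, the count of the 10 genes higher in mesenchyme stayed at 6 or 7 in those that kept all arrays and dim genes. In those settings 7.21% (median centring) to 16.5% (array weights) of all genes were higher in mesenchyme. The count of the 10 genes was 5 to 7 when 1 array was left out, beside 6.29% to 9.21% of all genes. It was 3 among genes above the median level, a filter that left 4 of the 10 in the test. Of the 9096 genes tested with that filter, 998 were higher in mesenchyme. The count higher in urothelium was 1 (Lgr4) with array weights and 0 otherwise. Other Wnt genes higher in urothelium numbered 16 with array weights and 4 to 9 when 1 array was left out, beside 11.3% and 3.58% to 5.84% of all genes. The calls of Rspo2, Rspo3, Sfrp1, Dkk2 and Dkk3 held in every alternative that tested them, with log2 differences of 2.01 to 6.75, 1.69 to 3.93, 2.99 to 4.48, 1.24 to 3.42 and 2.41 to 2.94. The sign turned for Dkk1 (−0.36 without mesenchyme 1, 0.98 at the other end when 1 array was left out, −0.22 without mesenchyme 1 and urothelium 5), for Wif1 (−0.0995 without both arrays) and for Axin2 (−0.11 after quantile normalization and after median centring, −0.067 without both arrays, −0.028 to 0.18 when 1 array was left out), none of which passed in any alternative. Why these values moved was not tested. The median gene was at 0.11, at 0.02 after quantile normalization and at −0.08 after median centring, and no sign of the 10 genes turned with either scaling.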

Other observations

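Mesenchyme 1 was the highest mesenchyme array for 4 of the 10 genes (Rspo1, Rspo2, Dkk1 and Wif1), the lowest for 4 (Sfrp1, Sfrp2, Dkk2 and Dkk3) and between the others for 2, as read after the values were seen. For Rspo2 and Dkk1 it was the highest in both probe sets. The Dkk1 probe set not used above gave 328 on mesenchyme 1, against 28.7 and 94.8 on mesenchyme 2 and 4. For Sfrp1 and Dkk3 the place of mesenchyme 1 depended on the probe set. Of the 5 Sfrp1 probe sets it was the lowest in 4 and the highest in 1 (3565, against 1386 and 1531), and in the brightest it was only slightly below mesenchyme 4 (8469 against 9046). Of the 2 Dkk3 probe sets it was the lowest in the brighter (15319, against 31687 and 28597) and the highest in the dimmer (3675, against 3363 and 2535). Outside the 10 genes, Ccnd1, the cyclin D1 gene and a beta-catenin target, gave 42610 on mesenchyme 1 against 11284 and 9929 on mesenchyme 2 and 4. It was also highest on urothelium 5 (10971, against 3245 and 3130 on urothelium 7 and 8). The other targets measured were mixed. Mesenchyme 1 was the highest mesenchyme array for Lef1 and Sp5. It was the lowest for Nkd1 (770, against 3266 and 2606) and Nkd2, and between the others for Tnfrsf19 and Axin2. On the log2 scale, the mean of a marker list on mesenchyme 1 departed from that of the 3 mesenchyme arrays by −0.63 for smooth muscle, −0.38 for mesothelium, −0.23 for macrophages, −0.21 for endothelium, −0.10 for mesenchyme, 0.29 for epithelium, 0.43 for red cells and 0.61 for neural crest. On urothelium 5 the same departures, from the 3 urothelium arrays, were 0.45 for neural crest and −0.40 for mesothelium. They were −0.14 for macrophages, −0.12 for smooth muscle, −0.06 for epithelium, −0.05 for endothelium, 0.03 for mesenchyme and 0.11 for red cells. The mesothelium departures include Msln and Krt19, both higher in urothelium. All these values are of single arrays with no replicate check, and their part in the results was not tested.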
